A study of Mus musculus with 11 samples.

Results

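Expression of 9 genes that mark B cells or build their antigen receptor was examined in orthotopic pancreatic tumours whose hosts had lost protein kinase N2 (PKN2) or kept it. The genes were Ms4a1, Cd79a, Cd79b, Pax5, Cd22, Blk, Ebf1, Cr2 and Fcer2a, listed by name and read from a table of raw RNA sequencing counts with 54232 genes. RNA came from a portion of each of 11 tumours, 6 grown in KO hosts (replicates A to F) and 5 in WT hosts (replicates A to E). All hosts were female mice on the C57BL/6 background, adult littermates matched for age, heterozygous for Rosa26 CreERT2 and given the same tamoxifen injections. KO hosts carried PKN2 fl/fl and WT hosts PKN2 +/+. Each pancreas had received 1000 TB32048 cells, a carcinoma line from a female KPC mouse, in DMEM and Matrigel. The carcinoma cells were a single line with intact Pkn2, and the Rosa26-driven Cre acts throughout the host, so deletion was not limited to fibroblasts and could include the host's own immune cells. Because the carcinoma cells keep the gene, Pkn2 itself cannot check the genotype labels in these tissue pieces. On a scale of counts divided by TMM-scaled library totals (CPM), Pkn2 stood at 96.4 ± 9.32 in KO against 96.5 ± 34.6 in WT (SD, n = 6 and 5).

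B cells recognise antigen through membrane immunoglobulin, which cannot signal without the paired chains encoded by Cd79a and Cd79b. Co-receptors set how strong that signal is. The complement receptor Cr2 (CD21) lowers the threshold, whereas the sialic acid-binding receptor Cd22 recruits phosphatases that damp it. The transcription factors Ebf1 and Pax5 commit progenitors to the B lineage and hold them there, and Ms4a1 (CD20) and Fcer2a (CD23) appear as the cells mature. In tumours B cells are often found in lymphoid aggregates, and none of these tumours was sorted, so every value below is a sum over all cells of a piece.

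In brief, 8 of the 9 genes were at higher mean levels in KO tumours, by 1.10 to 2.70 on the log2 scale, and Ebf1 was not (log2 fold change -0.13, SE 0.27). No gene of the 9 passed an adjusted p of 0.05 in edgeR's quasi-likelihood test over 16536 tested genes, where 3 genes (0.0181%) were called higher. At an unadjusted p under 0.05, 8 of 9 were higher, against 8.57% of all tested genes. Every KO tumour lay above every WT tumour for 3 of 9, Cd79a, Cd79b and Pax5, against 1.59% of all tested genes. DESeq2 on the same tumours called 8 of 9 at its adjusted p of 0.05, against 3.21% of the genes it tested, and limma-voom called 0, with 8 at an unadjusted p under 0.05. The median log2 fold change was 2.16 over the 9 genes and -0.03 over all tested genes. More B cells in KO tumours and more of these RNAs per B cell cannot be told apart in bulk tissue.

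Total counts ran from 16294128 to 31121422 per tumour. WT replicates A, B and C differed from the rest in technical measures. Ribosomal RNA genes took 1.31%, 6.39% and 1.40% of their counts, against 0.241% to 0.765% in the other 8 tumours. The deviation of each gene's log level from its mean over all tumours was also set against gene length. It was negatively related to length in those 3 tumours (Spearman coefficients -0.56, -0.48 and -0.21 over 13632 genes). In all others it was positively related to length (0.125 to 0.443). These coefficients are relative to the mean of all tumours, so negative values in some push the others up. They do not give the length relation of a single library. The labels name no sequencing batch. The 9 genes are therefore also given against WT replicates D and E alone. Of the other named genes, only list genes with 1 of the 2 smallest p or without overlap were examined this way. Their value is given where the log2 fold change moved by over 1.5 times. The remaining named genes, Ptprc and Ccl21a among them, were not examined this way.

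Promoter sequences are shown for the signalling chain gene with the smallest p, Cd79a, and for the co-receptor gene Cr2, whose median WT level per exon length was the lowest of the 9. They come from RefSeq on GRCm38.p6, which held windows for 6 of the 9 genes, and run 5′ to 3′ up to the RefSeq start or to the first exon of the GENCODE M21 annotation, whichever came first. Capitals mark CAGGTG, an E-box bound by E proteins, and GAGGAA, a core recognised by PU.1, on either strand.
Cd79a, chr7:24897247-24897380, plus strand: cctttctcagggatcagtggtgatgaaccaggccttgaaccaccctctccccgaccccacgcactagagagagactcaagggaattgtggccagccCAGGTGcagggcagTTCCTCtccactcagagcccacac
Cr2, chr1:195176720-195176969, minus strand: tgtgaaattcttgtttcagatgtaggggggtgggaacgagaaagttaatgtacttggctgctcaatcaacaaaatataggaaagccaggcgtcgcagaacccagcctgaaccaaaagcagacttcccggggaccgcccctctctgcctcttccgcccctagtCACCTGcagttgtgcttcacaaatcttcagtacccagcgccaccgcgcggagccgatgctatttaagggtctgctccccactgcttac
Cd79a held both motifs and Cr2 the E-box. Over the windows of the 6 genes, CAGGTG was found in 4 genes and GAGGAA in 2. These genes had 9 windows in all, whereas the shares over promoters below count single windows. In windows of 300 bases (250 before and 50 after the start), CAGGTG was present in 20.2% and GAGGAA in 28.3% of 32817 promoters. A form of the EBF site, TCCC followed by any 2 bases and GGGA, was in 0.905% of promoters and in 1 of these 6 genes, Cd22, as TCCCTGGGGA at positions -49 to -40 from its RefSeq start. The octamer ATGCAAAT, bound by OCT factors, was in 1.74% of promoters and in none of the 6 genes' windows. A match is a description of the letters only.

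The signalling chains of the receptor were the clearest pair. Cd79a (ENSMUSG00000003379, chromosome 7, 24897381 to 24902197, plus strand, GRCm38, protein coding) was at 27.4, 10.5, 30.8, 29.9, 13.2 and 16.6 CPM in KO replicates A to F. In WT replicates A to E it was at 2.60, 1.08, 3.68, 1.92 and 7.79 CPM. The groups did not overlap, with KO replicates A, C and D high, KO replicates B and E low among KO, and WT replicate E the highest WT tumour. KO exceeded WT by 2.62 on the log2 scale (SE 0.48, edgeR unadjusted p = 0.000109, adjusted p = 0.0663).

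Cd79b (ENSMUSG00000040592, chromosome 11, 106311341 to 106314762, minus strand) encodes the partner chain. Its KO levels were 21.5, 9.40, 24.4, 25.7, 10.4 and 13.4 CPM for replicates A to F, and its WT levels were 5.72, 3.25, 3.78, 2.39 and 7.79 CPM for replicates A to E. The same KO tumours were high and low as for Cd79a, and the groups again did not overlap. KO exceeded WT by 1.92 on the log2 scale (SE 0.37, edgeR adjusted p = 0.0663). In CPM the chains were present at nearly one ratio in every KO tumour, with a log2 ratio of Cd79b to Cd79a between -0.35 and -0.15. In WT tumours that ratio lay between 0 and 1.58, highest in WT replicates A and B, where the raw counts of Cd79a were 60 and 13.

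Blk (ENSMUSG00000014453, chromosome 14, 63372836 to 63417037, minus strand), a Src-family kinase that phosphorylates the receptor chains, was scarcer. KO tumours held 34 to 120 raw counts, with a lowest, median and highest level of 1.19, 2.86 and 4.87 CPM. WT replicates A to D held 4 to 10 counts (0.313 to 0.433 CPM) and WT replicate E held 58 (1.71 CPM). WT replicate E thus lay above KO replicates B and E, and the other 4 WT tumours below all KO tumours. For Blk the log2 fold change was 2.05 (SE 0.54, edgeR adjusted p = 0.0907).

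**Figure D1:**
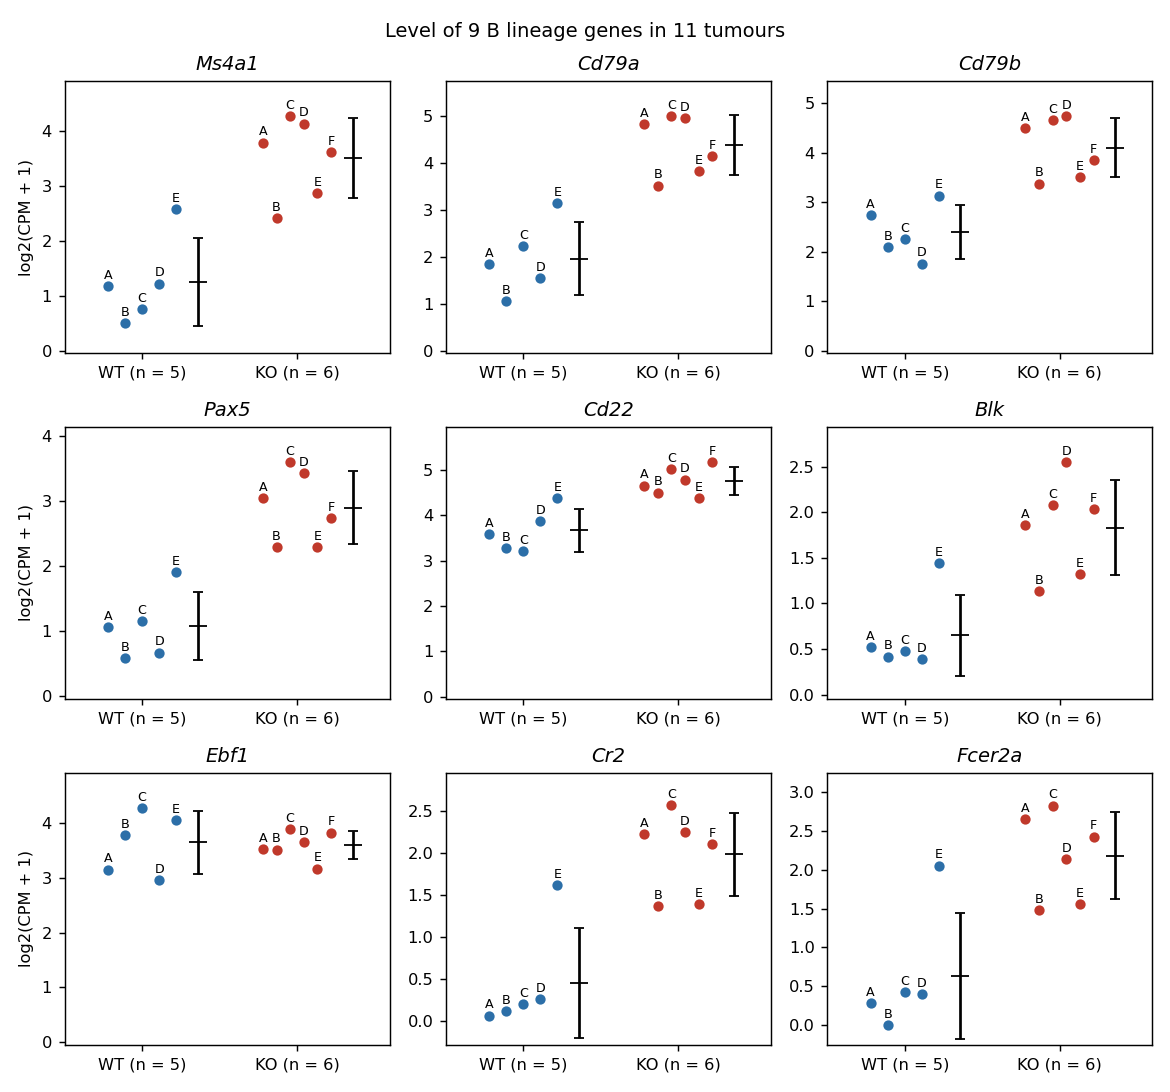
Level of each of the 9 genes as log2(CPM + 1) on the vertical axis, with 1 point per tumour labelled by its replicate letter, WT in blue and KO in red, and the mean with SD as a black bar at the side of each group. Cd79a, Cd79b and Pax5 separate the groups completely, WT replicate E (for example 7.79 CPM for Cd79a) stands above the other WT tumours in most panels, and the groups overlap throughout for Ebf1.

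The transcription factors Pax5 and Ebf1 behaved differently from each other. Pax5 (ENSMUSG00000014030, chromosome 4, 44524757 to 44710487, minus strand) was at 7.27, 3.89, 11.2, 9.82, 3.89 and 5.67 CPM in KO replicates A to F. WT replicates A to E were at 1.08, 0.50, 1.23, 0.587 and 2.74 CPM, so all KO tumours were above all WT tumours. This was a difference of 2.47 on the log2 scale (SE 0.48, edgeR adjusted p = 0.0663). Exons of Pax5 and Cd22 overlap annotated exons on the opposite strand, and such reads could not be separated if counting ignored the strand.

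Ebf1 (ENSMUSG00000057098, chromosome 11, 44617317 to 45008091, plus strand) was at 10.5, 10.4, 13.8, 11.5, 7.99 and 13.2 CPM in KO and at 7.89, 12.7, 18.4, 6.81 and 15.7 CPM in WT replicates A to E. The highest and the lowest of all 11 tumours were both WT, replicates C and D, and the groups overlapped throughout. Its log2 fold change of -0.13 (SE 0.27, edgeR unadjusted p = 0.634, adjusted p = 0.791) turned to 0.06 without WT replicate C. Ebf1 is also known to be expressed by adipocyte, pericyte and other stromal cells. The 7 pericyte markers summed to 255 to 333 CPM in KO and 135 to 433 CPM in WT tumours, and the 7 fibroblast markers to 1624 to 3476 CPM and 948 to 3711 CPM. All 7 markers of each list were detected in every tumour. The part of these cells in the Ebf1 level was not tested.

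**Figure D2:**
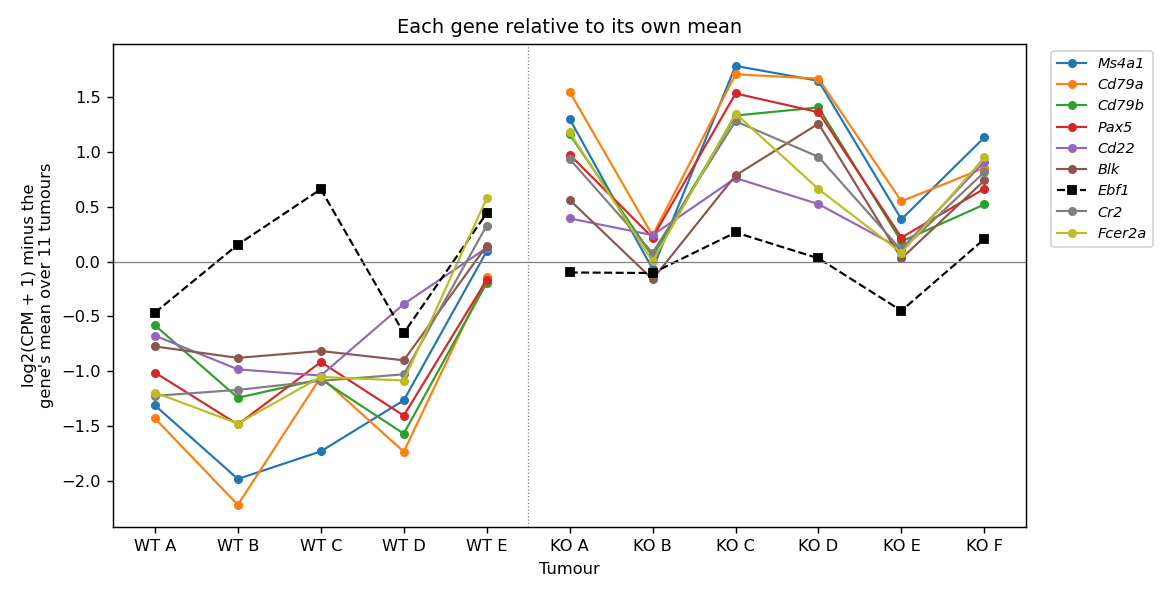
Deviation of log2(CPM + 1) from each gene's own mean over the 11 tumours (vertical axis) for each tumour (horizontal axis), 1 line per gene; lines only link the points of a gene, and the dotted line parts WT from KO. The genes other than Ebf1 (dashed, black) take nearly the same shape, low in WT replicates A to D and high in KO replicates A, C, D and F, whereas Ebf1 is highest in WT replicate C.

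Ms4a1 (ENSMUSG00000024673, chromosome 19, 11249675 to 11266241, minus strand) encodes CD20, a membrane protein of mature B cells. It was at 12.8, 4.35, 18.3, 16.6, 6.33 and 11.3 CPM in KO replicates A to F and at 1.26, 0.417, 0.687, 1.33 and 4.99 CPM in WT replicates A to E. KO replicate B lay just below WT replicate E, which was the only overlap. The log2 fold change, 2.70 (SE 0.60, edgeR adjusted p = 0.0786), was the largest of the 9, and was 3.61 without WT replicate E.

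Cd22 (ENSMUSG00000030577, chromosome 7, 30865402 to 30880342, minus strand), the inhibitory co-receptor, had the smallest difference among the 8 genes that were higher in KO tumours. KO tumours were at 24.1, 21.6, 31.4, 26.5, 19.7 and 35.01 CPM and WT tumours at 10.96, 8.67, 8.29, 13.6 and 19.9 CPM. Only KO replicate E fell within the WT range, just under WT replicate E. The difference was 1.10 on the log2 scale (SE 0.25, edgeR unadjusted p = 0.000755, adjusted p = 0.0796).

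Cr2 (ENSMUSG00000026616, chromosome 1, 195136811 to 195176716, minus strand) and Fcer2a (ENSMUSG00000005540, chromosome 8, 3681737 to 3694175, minus strand) are marks of mature B cells, and both are also made by follicular dendritic cells. Cr2 was at 3.67, 1.58, 4.93, 3.73, 1.62 and 3.30 CPM in KO tumours, from 40 to 142 raw counts. WT replicates A to D held 1, 1, 3 and 5 counts, at or close to the detection floor of 3 counts, whereas WT replicate E held 70 counts (2.07 CPM). WT replicate E was therefore above KO replicates B and E and far above the other WT tumours.

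Fcer2a is the low-affinity receptor for IgE. KO tumours were at 5.31, 1.79, 6.11, 3.41, 1.95 and 4.39 CPM. WT replicates A to D held 5, 0, 7 and 8 raw counts, and WT replicate E 107 counts, or 3.16 CPM. The count of 0 in WT replicate B allows a level of up to 3 counts, or 0.25 CPM on the TMM-scaled total of that tumour, for counting error only. In log2 fold change, KO against WT was 2.52 (SE 0.80, edgeR adjusted p = 0.108) for Cr2 and 2.16 (SE 0.81, edgeR adjusted p = 0.138) for Fcer2a, and both have the widest errors of the 9 genes. Without WT replicate E these values became 4.64 (SE 0.55) and 4.01 (SE 0.62), and against WT replicates D and E alone 1.46 (SE 0.77) and 1.13 (SE 0.78). In these low counts the fold depends on 1 WT tumour.

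WT replicate E was the highest WT tumour for 8 of 9 genes, the exception being Ebf1. It was also the most deeply counted library, and it carried acinar RNA, with the digestive enzyme gene Prss2 at 404 CPM against 0.156 to 24.1 CPM in the other WT tumours. KO replicate E, with Prss2 at 112 CPM, was among the lower KO tumours for the 9 genes. The part of adjoining pancreas or lymphoid tissue in a piece was not tested. When WT replicate E was left out, edgeR called 8 of 9 genes higher, all but Ebf1, against 3.63% of tested genes. Without WT replicate D it called 5 of 9, against 1.21% of tested genes, and without any other single tumour 0.

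WT replicates D and E lack the high ribosomal share and the negative length coefficients of A, B and C. Their own length coefficients were positive (0.34 and 0.44). Being relative to the mean of all tumours, these values cannot show whether WT replicates D and E are free of a length trend. With WT replicates D and E alone, 0 of 9 passed the adjusted threshold in edgeR. At an unadjusted p under 0.05, 5 of 9 were higher (Ms4a1, Cd79a, Cd79b, Pax5 and Cd22), against 8.21% of the genes tested in that fit. Their log2 fold changes were then 1.88 (SE 0.67) for Ms4a1, 2.14 (SE 0.63) for Cd79a, 1.78 (SE 0.57) for Cd79b, 2.05 (SE 0.66) for Pax5 and 0.66 (SE 0.25) for Cd22. Blk was then at 1.42 (SE 0.71) and Ebf1 at 0.00.

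**Figure D3:**
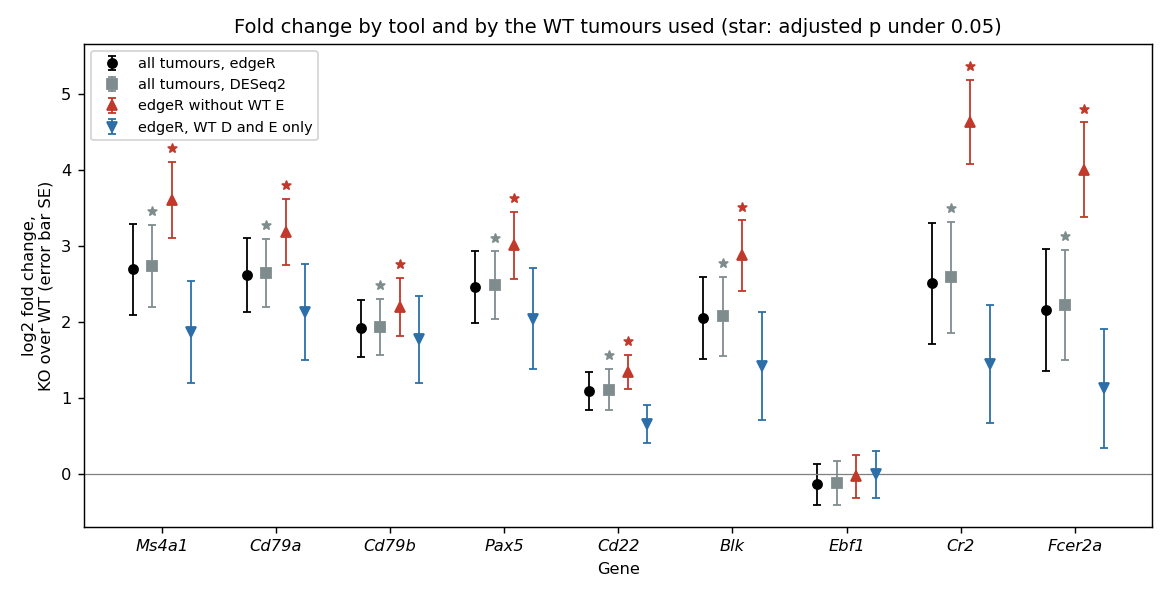
log2 fold change of KO over WT (vertical axis, error bar SE) for each gene, with edgeR on all 11 tumours (black), DESeq2 on all tumours (grey), edgeR without WT replicate E (red) and edgeR with only WT replicates D and E (blue); stars mark an adjusted p under 0.05. Values for Cd79b stay between 1.78 and 2.21, those for Cr2 run from 1.46 to 4.64, and Ebf1 stays near 0.

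Levels can be compared between genes only per exon length, as CPM per kilobase. On that scale the KO medians ran from 15.1 for Cd79a and 12.2 for Cd79b through 5.02 for Cd22, 1.95 for Ms4a1, 1.26 for Fcer2a, 1.13 for Ebf1, 1.06 for Blk and 0.731 for Pax5 to 0.430 for Cr2. Neighbours in this order overlapped over the KO tumours, except that every KO tumour had more Cd22 than any had Ms4a1. In WT tumours the order of the medians was Cd79b (2.64), Cd22 (2.17), Cd79a (1.78), Ebf1 (1.30), Ms4a1 (0.203), Blk (0.145), Pax5 (0.122), Fcer2a (0.101) and Cr2 (0.0181), and all neighbours overlapped. Cd79b, Cd22 and Ebf1 thus stood higher relative to Cd79a in WT tumours.

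The same levels can be written as ratios within tumours, for Cd79b as given above. Cd79a was itself higher in KO tumours, so a gene that differed less tends to a lower ratio there. The log2 ratio of Cd22 to Cd79a in CPM was between -0.19 and 1.08 in KO tumours (median 0.30) and between 1.17 and 3 in WT tumours (median 2.08), without overlap. That of Ebf1 to Cd79a lay between -1.39 and -0.005 in KO and between 1.01 and 3.55 in WT tumours. The ratio of Pax5 to Cd79a overlapped between groups, from -1.92 to -1.42 in KO (median -1.58) and from -1.71 to -1.12 in WT tumours (median -1.51). Ms4a1 had medians of -0.96 and -1.05, but its ratio was more spread in WT (-2.42 to -0.53) than in KO tumours (-1.26 to -0.55). These ratios are descriptions, since they reuse the CPM values above and were examined after the levels had been seen. No share over all genes was worked out for a lack of overlap in them.

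**Figure D4:**
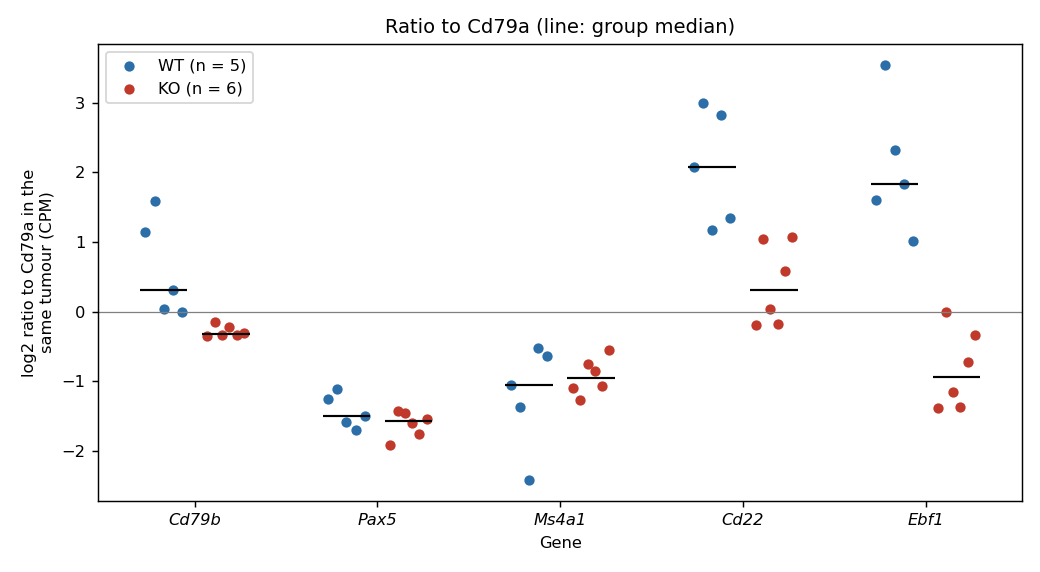
log2 ratio of Cd79b, Pax5, Ms4a1, Cd22 and Ebf1 to Cd79a in the same tumour (vertical axis, CPM), 1 point per tumour with WT in blue and KO in red, and the group median as a black line. Pax5 (medians -1.51 in WT and -1.58 in KO) and Ms4a1 overlap between groups. Cd79b, Cd22 and Ebf1 are higher relative to Cd79a in all WT tumours than in any KO tumour.

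Leukocyte RNA as a whole was read from Ptprc (CD45), which all blood-derived leukocytes express. Its level was 179 ± 60.5 CPM in KO and 101 ± 38.3 CPM in WT (SD, n = 6 and 5), or 0.82 higher in KO on the log2 scale (SE 0.29, edgeR adjusted p = 0.126). By tumour, Ptprc was at 83.9, 53.5 and 86.3 CPM in WT replicates A, B and C. In WT replicates D and E it was at 135 and 145 CPM, within the KO range of 106 to 282 CPM. Relative to Ptprc, the median log2 ratio in KO tumours minus that in WT tumours was 1.98 for Cd79a and 2.63 for Ms4a1. It was 1.48 for Pax5, 1.40 for Blk, 3.43 for Cr2, 0.84 for Cd79b, 0.17 for Cd22 and -0.81 for Ebf1. Of these ratios only that of Pax5 did not overlap between groups, and no share over all genes was worked out. That of Cd79b lay between -4.39 and -2.04 in KO and between -5.83 and -3.88 in WT tumours. The KO tumour with most Ptprc, replicate F (282 CPM), was not the one with most Cd79a. KO replicate D had the least Ptprc of the KO tumours (106 CPM) and the second-highest Cd79a. The part of leukocyte content in the B cell gene levels was not tested.

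Across the 11 tumours, log2(CPM + 1) of each gene was set against the mean z score of the other 8. Pearson's r was between 0.90 (Cd22) and 0.99 (Cr2) for 8 genes and 0.17 for Ebf1 (Spearman's rho 0.21). With each genotype centred on its own mean, r was 0.72 for Cd22, 0.45 for Ebf1 and 0.85 to 0.96 for the other 7. The tumours share library and composition effects across genes, so these values are descriptions. KO replicate C was the highest tumour for 5 of the 9 genes, and KO replicate B the lowest KO tumour for 7.

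Of 16527 other genes, those most like the mean profile of the 9 included Cacna1i (r = 0.98), Fcmr (0.97), Ighd (0.97), Fcrl1 (0.97), Chst3 (0.96), Tnfrsf13c (0.96), Pou2af1 (0.96), Emilin2 (0.95) and Sema3g (0.95), over 11 tumours. Fcmr is the receptor for IgM, Ighd the heavy chain of IgD, and Tnfrsf13c the receptor for the survival factor BAFF. Ighd had a KO median of 21.7 CPM and a WT median of 1.26 CPM, with no overlap. Emilin2, an extracellular matrix protein, was more abundant, with medians of 44.5 and 18.5 CPM.

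Other genes of the B lineage were read from lists. Beside all list counts below stand the shares of all tested genes. In edgeR these were 8.57% higher and 15.5% lower at an unadjusted p under 0.05. Every KO tumour lay above every WT tumour for 1.59%. Of 12 surface and co-receptor genes, 8 had an unadjusted p under 0.05 and were higher in KO tumours, 0 lower, and 0 passed the adjusted threshold, with a median log2 fold change of 1.01. Fcrla, an Fc receptor-like protein of B cells, averaged 4.68 ± 2.04 CPM among KO tumours against 1.39 ± 0.601 CPM among WT tumours (log2 fold change 1.74, SE 0.39, edgeR adjusted p = 0.0786), and H2-Ob, a chain of the peptide-editing regulator H2-O, at 11.2 ± 2.63 and 5.46 ± 1.66 CPM (edgeR adjusted p = 0.0869). Neither overlapped between groups. Tnfrsf13c was 1.99 higher on the log2 scale (SE 0.44, edgeR adjusted p = 0.0786). Cd81, the most abundant of the list and expressed by most cell types, was at 254 ± 19.5 and 253 ± 115 CPM.

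Of 15 receptor signalling genes, 9 were higher at an unadjusted p under 0.05 and 0 lower (median log2 fold change 0.57). Plcg2, the phospholipase that turns the receptor signal into calcium release, averaged 38.9 ± 9.32 CPM in KO against 17.8 ± 5.57 CPM in WT, without overlap (log2 fold change 1.13, SE 0.23, edgeR adjusted p = 0.0764). Btk, the kinase that activates it, was 0.74 higher on that scale (SE 0.20, edgeR adjusted p = 0.0928), and the phosphatase Ptpn6, which Cd22 recruits, 0.53 (SE 0.22, edgeR adjusted p = 0.163). Against WT replicates D and E alone Plcg2 was at 0.72. Many of these genes are also used by myeloid cells.

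Of 12 lineage transcription factors, 6 were higher at an unadjusted p under 0.05 and 0 lower (median 0.65). Pou2af1, the OCT co-activator of B cells, was 2.48 higher on the log2 scale (SE 0.53, edgeR adjusted p = 0.0766), Bcl11a 1.35 (SE 0.41), Spib 1.17 (SE 0.47) and Ikzf1 0.92 (SE 0.26), and these 4 did not overlap between groups. Against WT replicates D and E alone, Bcl11a was at 0.76 and Ikzf1 at 0.47. Tcf3, a widely expressed E protein, was at 126 ± 23.5 and 135 ± 15.98 CPM. Of 7 homing receptors, 3 were higher at an unadjusted p under 0.05. Cxcr5, the receptor for CXCL13 that leads B cells into follicles, was 1.84 higher on the log2 scale (SE 0.54, edgeR adjusted p = 0.0991), and Cxcr4 was 0.52 higher (SE 0.19). Against WT replicates D and E alone Cxcr5 was at 1.00.

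Genes of other B cell stages were less clear. Of 8 germinal centre genes 5 were tested, of which 1 was higher at an unadjusted p under 0.05, Bcl6 (log2 fold change 0.56, SE 0.17, edgeR adjusted p = 0.0997), which other cells also express. Mybl1 and S1pr2 had log2 fold changes of 0.70 (SE 0.33) and 0.25 (SE 0.14). Of 12 plasma cell genes 11 were tested, of which 5 were higher at an unadjusted p under 0.05, among them Mzb1, a chaperone of antibody secretion (10.7 ± 8.96 against 2.20 ± 1.51 CPM, edgeR adjusted p = 0.107, log2 fold change 2.28, and 3.68 against WT replicates D and E alone), and Tnfrsf13b (log2 fold change 0.55, SE 0.17). Sdc1, a plasma cell mark that carcinoma cells also carry, was at 569 ± 99.996 and 446 ± 76.4 CPM. Of 7 precursor genes 3 were tested. Vpreb3 was 1.76 higher on the log2 scale (SE 0.60, edgeR adjusted p = 0.12). Vpreb1, part of the surrogate light chain, held 4 to 31 raw counts and had a value of -1.68 (SE 0.49, edgeR adjusted p = 0.0976), without overlap between groups. The Vpreb1 value was -1.04 without WT replicate B, the tumour with most ribosomal RNA, -0.80 with the ribosomal share as a covariate and -0.91 against WT replicates D and E alone. Il7r was at 13.3 ± 6.43 and 16.6 ± 8.90 CPM, and Rag2 held 0 to 2 raw counts.

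Markers of other cells were read the same way, beside the same shares of all tested genes. Of 11 T cell markers 0 had an unadjusted p under 0.05 (median log2 fold change 0.08), with Cd8a at 86.4 ± 45.3 and 77.1 ± 41.3 CPM, Cd3d at 26.9 ± 12.9 and 45.5 ± 35.4 CPM and Cd4 at 15.8 ± 5.99 and 11.03 ± 5.62 CPM. Of 8 plasmacytoid dendritic cell markers, 1 was higher at that level, Ly6d (log2 fold change 1.16, SE 0.49), which B cells also express. Cox6a2 had a log2 fold change of -1.51 (SE 0.71), and Bst2 was at 248 ± 125 and 268 ± 196 CPM. Against WT replicates D and E alone, the log2 fold change was 0.28 for Cd3d, -0.03 for Cd4 and 0.60 for Cox6a2. Of 8 macrophage markers 3 were higher at an unadjusted p under 0.05, among them Csf1r (0.83, SE 0.24) and Itgam (0.91, SE 0.31) on the log2 scale, whereas C1qa was at 705 ± 203 and 679 ± 269 CPM. Csf1r was at 0.41 against WT replicates D and E alone.

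Of 11 markers of follicular dendritic cells and lymphoid stroma, 8 were tested. Against 8.57% of all tested genes, 1 was higher at an edgeR unadjusted p under 0.05. This was Cxcl13, the chemokine that draws Cxcr5-bearing B cells, at 28.1, 6.07, 32.7, 42.5, 12.3 and 25.6 CPM in KO replicates A to F and 6.46, 4.67, 2.01, 8.17 and 9.30 CPM in WT replicates A to E. KO replicates B and E were the lowest KO tumours and WT replicate E the highest WT tumour. Cxcl13 was higher in KO by 2.00 on the log2 scale (SE 0.49, edgeR adjusted p = 0.0847). Summed levels of this list were 201 to 290 CPM in KO and 150 to 296 CPM in WT tumours, mostly from Mfge8 (181 ± 14.6 and 150 ± 53.3 CPM), which many cells express. Glycam1, a mark of high endothelial venules, had a log2 fold change of 1.22 (SE 0.65), and 0.61 without KO replicate C. Other members of the list pointed the other way. Ccl21a and Madcam1, chosen here after their values were seen, had log2 fold changes of -1.68 (SE 1.09, edgeR adjusted p = 0.356) and -0.48 (SE 0.61). Ccl21a, a chemokine of lymph vessels and T cell zones, has near-identical gene copies and its counts are therefore uncertain. Its median was 3.18 CPM among KO and 40.9 CPM among WT tumours, and 5 of 6 KO tumours lay below all WT tumours, with KO replicate F at 73.7 CPM. In WT replicates A, B and C Ccl21a was at 114, 45.8 and 40.9 CPM, and in WT replicates D and E at 21.4 and 12.0 CPM. The log2 fold change of Ccl21a against WT replicates D and E alone was not examined.

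The remaining lists describe what else the pieces held. Of 6 carcinoma epithelial markers 3 had an unadjusted p under 0.05, all lower in KO (median log2 fold change -0.62), against 15.5% of all tested genes, among them Krt19 (546 ± 189 against 1031 ± 384 CPM, edgeR adjusted p = 0.128), Epcam (log2 fold change -1.62, SE 0.72) and Krt18 (-0.54, SE 0.25). Their sum was 2653 to 5434 CPM in KO and 3081 to 9240 CPM in WT tumours. By tumour, WT replicates A, C, D and E (Krt19 at 914 to 1366 CPM) had more Krt19 and less Cd79a than every KO tumour. WT replicate B had the lowest Krt19 (413 CPM) and the lowest Cd79a of the WT tumours, and KO replicate A had the highest Krt19 of the KO tumours (830.2 CPM) with Cd79a at 27.4 CPM. Cdh1 (E-cadherin), also chosen after its value was seen, had a log2 fold change of -0.07 (SE 0.38). The part of the carcinoma share in the B cell gene levels was not tested. Of 6 acinar markers 3 were tested, of which 1, Cela1, was lower at an unadjusted p under 0.05 (log2 fold change -1.96, SE 0.55). Ctrb1 and Prss2 had log2 fold changes of -1.55 (SE 2.02) and -2.19 (SE 1.90), and that of Prss2 turned to 1.38 without WT replicate E. Of 7 adipocyte markers tested, 2 were higher and 1, Pparg, lower at an edgeR unadjusted p under 0.05. Pparg, named after its value was seen, had a log2 fold change of -0.73 (SE 0.30). Plin1 was at 3.14 ± 2.71 and 0.295 ± 0.489 CPM and Adipoq at 4.93 ± 3.99 and 0.743 ± 1.36 CPM, both in few counts. Fabp4 was at 55.4 ± 18.0 and 75.6 ± 61.9 CPM. No pericyte or fibroblast marker had an unadjusted p under 0.05, with log2 fold changes of 0.70 (SE 0.36) for Abcc9, 0.39 (SE 0.27) for Pdgfrb, 0.60 (SE 0.36) for Pdgfra, 0.51 (SE 0.34) for Lum and 0.41 (SE 0.38) for Col1a1. Against WT replicates D and E alone, the log2 fold change was -0.65 for Epcam, -3.40 for Prss2, 4.79 for Adipoq, 0.41 for Abcc9, 0.01 for Pdgfrb, 0.11 for Pdgfra and 0.22 for Lum. No gene of the 16 lists passed the adjusted threshold in edgeR, and none was at 0 in every tumour.

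**Figure D5:**
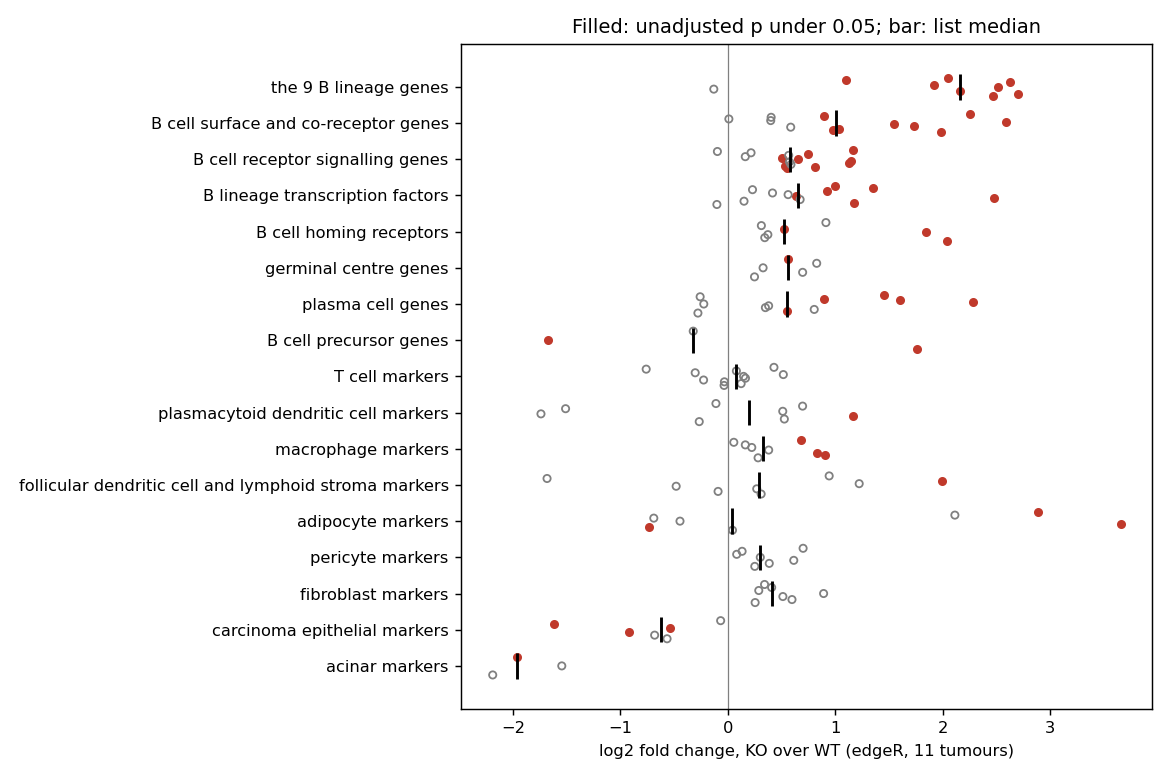
log2 fold change of KO over WT (horizontal axis, edgeR on 11 tumours) of every tested gene, grouped by list (vertical axis); filled red points have an unadjusted p under 0.05, open points do not, and black bars are list medians. The 9 B lineage genes have the highest median (2.16), T cell markers lie around 0 (median 0.08) and carcinoma epithelial markers below it (median -0.62).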

How the data were processed

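RNA from 11 tumours was made into directional NEB Next Ultra II libraries. Per the labels and the study's methods, HISAT2 (version 2.1.0) aligned the trimmed read pairs to GRCm38, and genes were counted with HTSeq (version 0.11.2); the strand setting of counting is not given in the sources used here. The authors deposited raw counts per gene and a signal of scaled counts, each raw count divided by 1 factor per tumour. All tests used the raw counts; the scaled signal served 1 alternative. KO and WT were compared with edgeR (version 4.0.16, R version 4.3.3; quasi-likelihood, TMM, filterByExpr, no covariates, Benjamini-Hochberg adjustment over 16536 genes). CPM used TMM-scaled totals. Gene lengths and symbols came from GENCODE M21 (54079 of 54232 genes matched). The smallest visible level was taken as 3 counts. DESeq2 (version 1.42.0), limma-voom (limma version 3.58.1), other filters, covariates and tumour subsets were alternatives. The test was checked on simulated data.

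The 9 genes, the lists and the tests were chosen with earlier results of these data known. By rule, the text names from each list the 2 tested genes with the smallest p and the 1 with the highest mean CPM. The rule also names list genes whose groups do not overlap, Ptprc and the 10 genes most like the members. Beside these, Rag2, Ccl21a, Madcam1, Cdh1 and Pparg were chosen after their values were seen. Some genes that this rule names are not reported here. No libraries agreed within sampling noise (lowest chi-square per degree of freedom 33.9). A letter shared by a KO and a WT tumour names different animals, so letters were not used as pairs. P-values measure the spread between these tumours only.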

Additional observations from a re-analysis of the deposited data

Results flagged for a closer look

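In WT replicate E, 3 genes stood far from the other 4 WT tumours by Dixon's criterion at the 95% level. On the log2(CPM + 1) scale Blk was at 1.44, Cr2 at 1.62 and Fcer2a at 2.06, and the gap to the nearest WT tumour took 0.879, 0.874 and 0.793 of the group's range, against a critical value of 0.71. In all, 18 groups (9 genes in 2 genotypes) were examined, of which chance flags about 0.9. The 3 genes have the lowest mean CPM of the 9 in WT tumours and share a library, so the flags are not independent of each other.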

How the results depend on the processing

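The 8 genes other than Ebf1 kept a positive log2 fold change under every alternative run. Their number past an adjusted p of 0.05 was 0 in edgeR and 8 with DESeq2. It was 3 with no low-count filter and 2 with an offset for gene length. When 1 tumour was left out it ran from 0 to 8 (5 without WT replicate D, 8 without WT replicate E). It was 0 with limma-voom, RLE factors or a ribosomal RNA covariate. It was also 0 with only WT replicates C, D and E or only D and E. The number at an unadjusted p under 0.05, 8, was 3 with at least 10 counts required in every tumour, which leaves 4 genes tested, 5 with WT replicates D and E only, 7 with C, D and E, and 8 whichever tumour was left out. The median log2 fold change, 2.16, was 1.51 with that count minimum, 1.46 with WT replicates D and E only and 1.92 to 3.01 with 1 tumour left out. The number without overlap, 3, was 4 in the deposited scaled counts and 3 to 8 with 1 tumour left out (8 without WT replicate E). With fewer tumours, a lack of overlap is easier to reach for any gene. Beyond the shares of tested genes given above, none was worked out for these alternatives. Their counts describe the listed genes only. With the replicate letter as a block, the median was 2.69 and the counts were 0 adjusted and 8 unadjusted. Same-lettered tumours did not deviate together over all tested genes (correlations -0.17 to 0.16). These values cannot exclude a shared litter or batch, and the main test did not use the letters as pairs.

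The following, in log2 fold change, turned direction, none past the threshold: Ebf1 (-0.28 to 0.0621 with 1 tumour left out, 0.0621 without WT replicate C, 0.000806 with WT D and E only), Cd3d (0.16 with WT C, D and E, 0.28 with D and E), Cox6a2 (0.0736 and 0.60), Cd4 (-0.027 with D and E) and Prss2 (-7.83 to 1.38 with 1 tumour left out). The cause was not tested. Over all 722 alternative values of 35 list genes, 668 kept their side of the threshold, 48 newly passed it and 6 turned, those just given for Cd3d, Cd4, Cox6a2 and Prss2. The length offset and the subsets of WT tumours were chosen after seeing the data.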
